A study of Mus musculus with 2 samples.

Results

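The mouse genome carries 5 kainate receptor genes, Grik1 to Grik5, and 2 genes for Neto proteins, Neto1 and Neto2. These 7 genes were selected by symbol from the 55536 genes of the deposited tables, and each symbol matched 1 gene. The rule uses the symbols alone. They were followed in 2 total RNA-seq libraries of the hippocampus, both from male B6CASTF1/J mice (hybrid offspring of C57BL/6J and CAST/EiJ) aged 18 to 20 months, with no treatment named in the labels. The libraries, replicate 1 and replicate 2, form the study's only group and were each made from 300 ng of RNA. Both carry one donor record, and no label states that 2 animals were used, so the spread between the libraries may be technical. Levels are in TPM, a measure of transcript abundance scaled for transcript length and library size, and are given per library and as mean ± SD over both (n = 2). With 2 values a two-sided exact sign-flip test cannot go below p = 0.5. No p-values are therefore given, and differences are read against the spread of the libraries.

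Kainate receptors are glutamate-gated cation channels built from 4 subunits. GluK1, GluK2 and GluK3, the products of Grik1, Grik2 and Grik3, are the low-affinity subunits and can form channels by themselves. GluK4 and GluK5, the products of Grik4 and Grik5, bind kainate with high affinity and need a low-affinity partner to form a working channel. In the hippocampus these receptors are best known at the synapse of mossy fibres, the axons of dentate granule cells, on CA3 pyramidal cells, and on interneurons. Neto1 and Neto2 are single-pass membrane proteins with CUB domains that bind the receptors and alter their deactivation and desensitisation.

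The libraries held 34563482 and 32370292 expected counts over genes, and 14287 genes reached 1 TPM or more in both, which is called detected here. The label of hippocampal tissue was checked against marker lists. All 8 dentate granule markers, 6 of 6 CA1 markers and 6 of 7 CA3 markers were detected, as were 5 of 6 CA2 and 3 of 5 mossy cell markers, where 25.7% of all genes were. All 5 thalamus and all 5 neocortex markers were detected too, so detection alone does not single out the hippocampus. Choroid plexus markers, from the epithelium that borders the ventricle, differed most between the libraries: their levels summed to 36.9 TPM in the first replicate and to 699 TPM in the second. Most of each sum was Ttr, at 29.9 and 672 TPM, and 7 of 7 markers were higher in the second replicate. In bulk tissue, fewer cells of a type and less RNA per cell cannot be told apart.

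Several members have annotated transcripts that code for different proteins, and the sequences that separate these forms are shown here because the transcript shares below are shares of these forms. They were read from the GENCODE M21 transcripts and are written 5′ to 3′ on the transcript strand, with positions in mm10. For Grik2, 4 coding ends are shown, each from the start of its last coding exon or exon part through the stop codon, which is in capitals. Grik2-202 ends at chr10:49101108-49101272 (minus strand, exon 16 of 16) and completes a protein of 908 residues, known as GluK2a. Grik2-204 ends in a separate exon upstream, at chr10:49105018-49105065 (exon 16 of 17), and completes 869 residues, known as GluK2b. Grik2-205 ends at chr10:49103529-49103648 (exon 16 of 17) after 893 residues. Grik2-210 leaves the common path far earlier, at chr10:49496095-49496160 (exon 8 of 8), and codes for 338 residues. The membrane-spanning segments of the receptor lie beyond that point.
Grik2-202 end: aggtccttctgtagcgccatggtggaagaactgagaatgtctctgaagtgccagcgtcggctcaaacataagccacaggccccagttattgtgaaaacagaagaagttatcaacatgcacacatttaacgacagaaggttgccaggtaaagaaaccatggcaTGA
Grik2-204 end: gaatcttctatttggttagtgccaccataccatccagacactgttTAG
Grik2-205 end: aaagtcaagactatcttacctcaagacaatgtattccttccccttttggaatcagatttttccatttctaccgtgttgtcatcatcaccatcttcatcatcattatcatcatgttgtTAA
Grik2-210 end: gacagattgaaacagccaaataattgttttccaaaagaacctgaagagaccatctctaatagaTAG

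Grik1 forms differ by cassette exons, shown in capitals between 15 bases of flanking exon on each side. The late cassette of 87 bases lies at chr16:87896809-87896895 (minus strand) near the end of the coding sequence and is part of Grik1-202 and Grik1-209. The early cassette of 45 bases lies at chr16:87955289-87955333 in the part that codes for the extracellular region, and is part of Grik1-209, Grik1-210 and Grik1-211.
Grik1 late cassette: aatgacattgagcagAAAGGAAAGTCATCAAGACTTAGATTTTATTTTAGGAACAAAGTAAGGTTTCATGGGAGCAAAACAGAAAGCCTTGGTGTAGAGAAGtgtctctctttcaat
Grik1 early cassette: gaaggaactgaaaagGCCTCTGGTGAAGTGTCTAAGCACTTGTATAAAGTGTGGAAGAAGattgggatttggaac

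For Grik5, 2 transcripts are annotated as targets of nonsense-mediated decay, the pathway that degrades messengers with an early stop codon. Grik5-202 has 25 bases more at the end of exon 3 (chr7:25067985-25068009, minus strand), shown in capitals between flanks. Grik5-207 holds an extra exon, exon 7 of 21, whose coding part ends at the stop codon in capitals (chr7:25061214-25061339).
Grik5-202 extra bases: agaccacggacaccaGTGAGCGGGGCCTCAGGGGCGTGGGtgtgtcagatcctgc
Grik5-207 extra exon: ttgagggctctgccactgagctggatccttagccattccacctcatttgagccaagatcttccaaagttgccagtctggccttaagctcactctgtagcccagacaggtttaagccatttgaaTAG

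The main Neto2 transcripts begin in different first exons. Neto2-201 starts its coding sequence at chr8:85690835-85690973 (minus strand) and Neto2-205 at chr8:85700641-85700674, with the start codon in capitals below. Neto2-205 also has 21 bases more at the end of exon 5 (chr8:85663387-85663407), in capitals between flanks.
Neto2-201 start: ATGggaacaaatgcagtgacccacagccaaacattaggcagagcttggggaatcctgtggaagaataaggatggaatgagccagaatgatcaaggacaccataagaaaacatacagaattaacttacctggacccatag
Neto2-205 start: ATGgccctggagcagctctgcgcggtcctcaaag
Neto2-205 extra bases: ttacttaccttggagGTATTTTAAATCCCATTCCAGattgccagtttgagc

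All 7 genes were detected. From highest to lowest the order was Grik5, Neto1, Grik2, Grik4, Neto2, Grik3 and Grik1. Grik5 ranked 944 and Grik1 ranked 10089 among the 12673 protein-coding genes detected, whose median level was 14.6 TPM. At each of the 6 steps in this order, both libraries of the higher gene lay above both libraries of the lower gene, and the gap exceeded the summed SD. The order was also the same in each library alone and in the second deposited quantification. That table gave 6 of the members higher TPM, with Grik5 at 132 and 133 TPM, and Neto1 slightly lower TPM, at 59.6 and 65.0, so the tables are compared by ratios and shares. The order did change with the length correction: in counts without length correction Grik3 stood above Neto2.

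**Figure D1:**
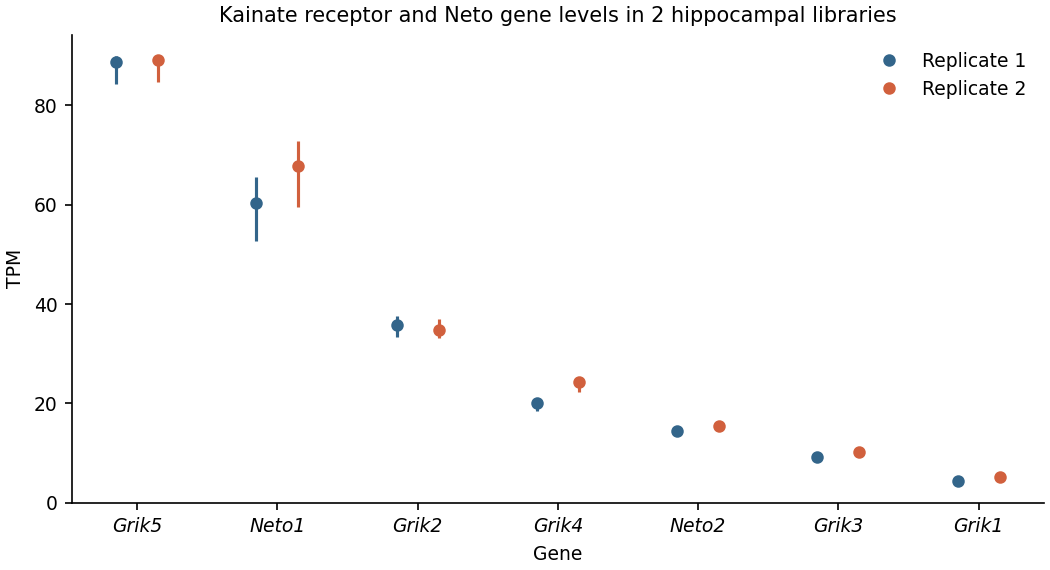
TPM (y axis, linear, from 0) of the 7 genes (x axis, from highest to lowest mean); points are the deposited values of replicate 1 (blue) and replicate 2 (orange), and lines are the deposited interval of each value, whose level is not given in the sources used here. Grik5 sits near 89 TPM in both libraries and Grik1 at 4.41 and 5.10 TPM, with no overlap between neighbouring genes.

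Grik2 was the main low-affinity subunit gene. It lies on chromosome 10 from 49094833 to 49788766 (minus strand, mm10) and stood at 35.8 and 34.8 TPM in replicates 1 and 2 (35.3 ± 0.679). Grik3, on chromosome 4 from 125490700 to 125714173 (plus strand), stood at 9.21 and 10.2 TPM (9.71 ± 0.707). Grik1, on chromosome 16 from 87895900 to 88290265 (minus strand), was the lowest member at 4.41 and 5.10 TPM (4.75 ± 0.488), from 357 and 368 expected counts. Both libraries thus placed the 3 genes in the same order with no overlap. Grik2 exceeded Grik3 by 3.88-fold in replicate 1 and 3.41-fold in replicate 2 (3.65 ± 0.335). Grik3 exceeded Grik1 by 2.09-fold and 2.00-fold (2.05 ± 0.0611).

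The Grik2 level was divided among several coding ends. The 908-residue form, from Grik2-202 and Grik2-207, held 34.6% and 38.1% of the Grik2 TPM in replicates 1 and 2. The 869-residue form, from Grik2-201 and Grik2-204, held 24.8% in both. The 338-residue form, Grik2-210, which has the separate early end printed above, held 23.98% and 21.6%. The 893-residue form, Grik2-205, stood at only 0.45 and 0.68 TPM. The ratio of the 908-residue to the 869-residue form was 1.39 and 1.54 (1.47 ± 0.1003), so the longer form was the higher one in both libraries.

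How far apart the 2 long Grik2 forms were depended on the quantification. In the second transcript table their ratio was 1.04 and 1.22 (1.13 ± 0.131). There the leading transcript was Grik2-204, with 21.4% and 26.3%, ahead of Grik2-202 with 19.8% and 23.0%. In the first table Grik2-202 led, with 24.9% and 27.8%. The short form Grik2-210 kept a similar share in the second table, 20.1% and 18.8%. Of the 1986 stretches of 100 bases along Grik2-210, 721 occur in no other Grik2 transcript, against 97 of 2984 for Grik2-204 and 0 of 3893 for Grik2-202. The other transcript of the 908-residue form, Grik2-207, is longer and has 5022 of 9328.

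Of the Grik2 TPM, 12.2% and 12.5% was in retained-intron transcripts, almost all of it Grik2-203 at 11.2% and 12.2%. These transcripts are annotated as noncoding. Grik2-206, a fragment of 539 bases with an incomplete coding sequence, held 2.60% and 0% in the first table and 8.68% and 7.30% in the second. Summed over the transcripts with at least 80% of the longest coding sequence, called long coding here, Grik2 stood at 21.7 and 22.6 TPM, 60.6% and 64.9% of its level.

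Grik1 gave the largest difference in transcript share between the libraries. Grik1-201, which lacks both cassettes and codes for 905 residues, held 21.6% of the Grik1 TPM in replicate 1 and 59.5% in replicate 2. Grik1-202, which carries the late cassette and codes for 934 residues, held 29.0% in replicate 1 and was at 0 in replicate 2. The second table had the same direction, with 20.9% and 53.5% for Grik1-201 and 28.3% and 6.45% for Grik1-202. Over all long coding Grik1 transcripts, the share with the late cassette was 41.1% and 0% in the first table and 52.1% and 8.33% in the second. The share with the early cassette was 20.98% and 6.38% in the first table and 18.0% and 5.45% in the second.

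Of the other coding forms, Grik1-206, which ends in another last exon after 903 residues, held 11.7% and 9.65% in the first table and 19.0% and 13.2% in the second. Grik1-211, with the early cassette alone, held 13.2% and 4.67% in the first table and nearly nothing in the second.

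These Grik1 shares rest on few counts. Grik1-201 had 82.7 and 242 expected counts, and Grik1-202 had 114 and 0. The deposited TPM intervals of Grik1-201 ran from 0.0204 to 1.95 in replicate 1 and from 1.51 to 3.39 in replicate 2, and so overlapped. Those of Grik1-202 overlapped too, with upper bounds of 1.96 and 0.987 TPM. No stretch of 100 bases is unique to Grik1-201 or to Grik1-202. The summed long coding level of Grik1 differed less, at 3.48 and 3.76 TPM. Retained-intron transcripts held 21.1% and 26.2% of the Grik1 TPM, in Grik1-204, Grik1-205 and Grik1-207. Another retained-intron transcript, Grik1-208, was at 0 in the first table and held 7.18% and 3.70% in the second. Grik3 has a single annotated transcript, of 8973 bases and coding for 919 residues, so its level needed no division.

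**Figure D2:**
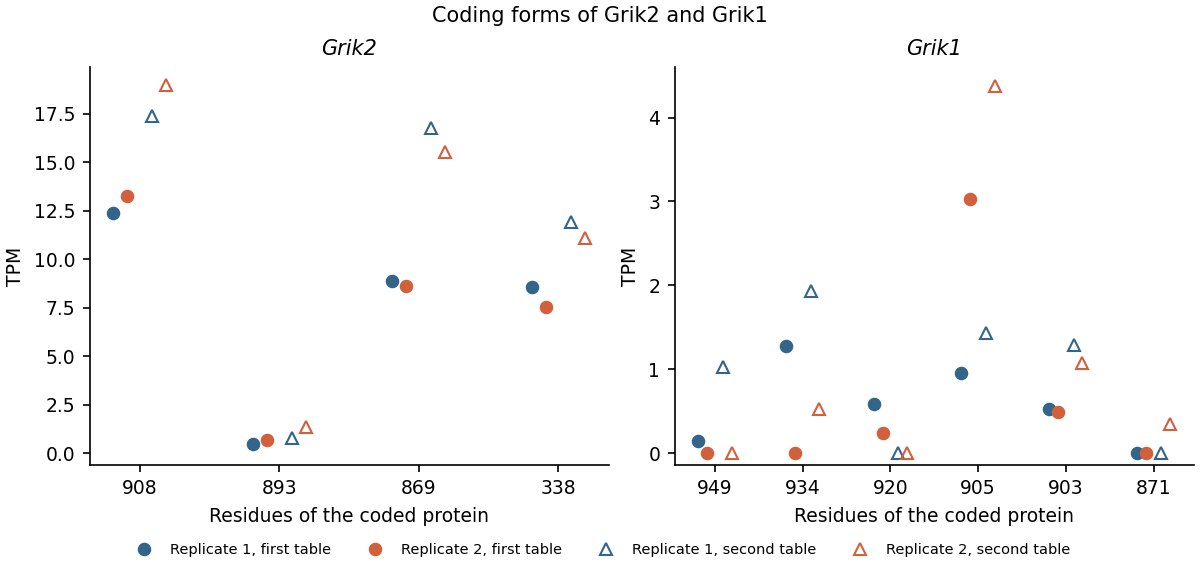
TPM (y axis, linear) of the complete coding forms of Grik2 (left) and Grik1 (right), by residues of the coded protein (x axis); circles are the first transcript table, triangles the second, blue replicate 1 and orange replicate 2. A Grik1 form at 0 in both tables is left out. The Grik2 forms of 908, 869 and 338 residues lie close between the libraries within a table, while the Grik1 form of 905 residues stands at 0.95 and 3.03 TPM in the first table.

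Grik5 was the highest member. It lies on chromosome 7 from 25009849 to 25072346 (minus strand) and stood at 88.8 and 89.1 TPM in the replicates (88.95 ± 0.269). Grik4, the other high-affinity subunit gene, lies on chromosome 9 from 42518135 to 42944493 (minus strand) and stood at 20.0 and 24.2 TPM (22.1 ± 2.98). Grik5 exceeded Grik4 by 4.44-fold and 3.68-fold (4.06 ± 0.534) and Grik2 by 2.48-fold and 2.56-fold (2.52 ± 0.0561). Grik5 thus stood above every low-affinity gene in both libraries, and it held 56.1% and 54.5% of the summed kainate receptor TPM. Grik2 held 22.6% and 21.3% of that sum, Grik4 12.7% and 14.8%, Grik3 5.82% and 6.25%, and Grik1 2.79% and 3.12%. The 2 high-affinity genes together exceeded the 3 low-affinity genes by 2.20-fold and 2.26-fold (2.23 ± 0.0421). This is a ratio of messengers and not of subunits at the synapse.

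Most of the Grik5 level was in the full-length transcript. Grik5-201, coding for 979 residues, held 84.7% and 89.2% of the Grik5 TPM in the first table and 74.0% and 73.6% in the second. The tables differed in the nonsense-mediated decay transcripts, Grik5-202 and Grik5-207, which together held 5.68% and 4.21% in the first table and 17.1% and 19.0% in the second. Nearly all of that gap was in Grik5-207, the transcript with the extra exon printed above, at 1.23% and 1.48% against 11.96% and 15.5%. Retained-intron transcripts of Grik5 held 6.88% and 5.99% of its TPM.

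Grik4 has 2 annotated transcripts with the same coding sequence of 956 residues, which differ only in their untranslated parts. Grik4-201, of 3413 bases, held 66.2% and 69.1% of the Grik4 TPM, and Grik4-202, of 5887 bases, held the rest, 33.8% and 30.9%. In the second table Grik4-201 held 70.6% and 75.2%. Every annotated Grik4 transcript therefore codes for the whole subunit, as does that of Grik3.

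**Figure D3:**
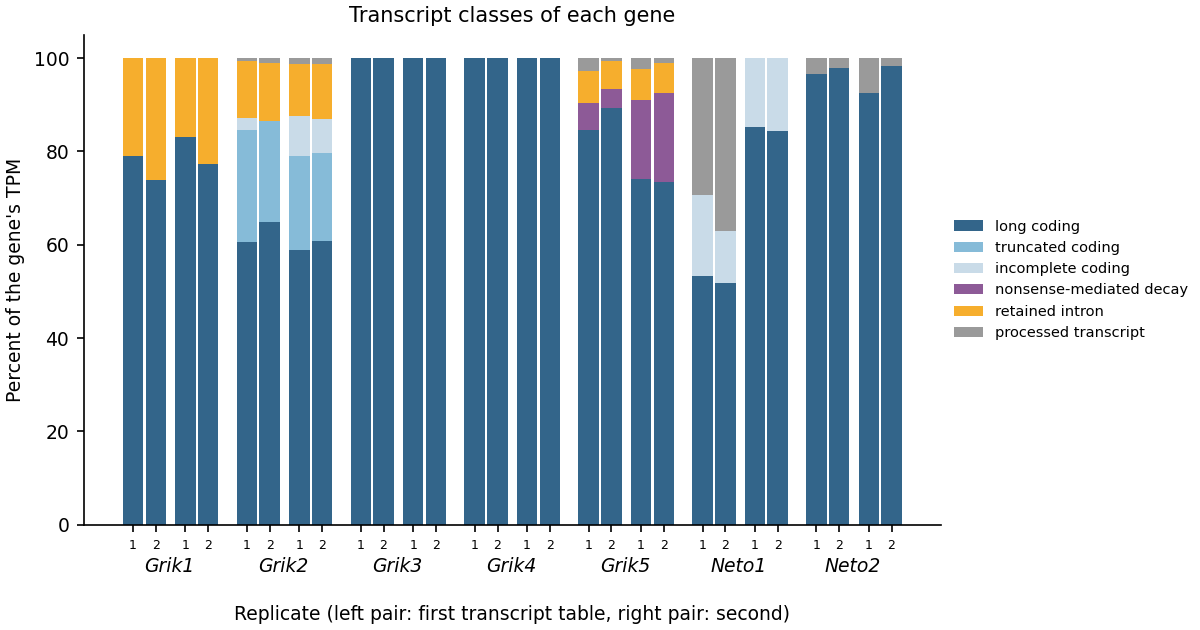
Percent of each gene's TPM (y axis, linear, from 0) in 6 classes of transcript (colours); the left pair of bars for each gene is the first transcript table and the right pair the second, each for replicates 1 and 2. Long coding transcripts hold all of Grik3 and Grik4, while Grik1 and Grik2 carry retained-intron transcripts, Grik5 decay-class transcripts and Neto1 short transcripts whose share depends on the table.

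Neto1 was the second highest member and the main Neto gene. It lies on chromosome 18 from 86394952 to 86506718 (plus strand) and stood at 60.4 and 67.8 TPM in the replicates (64.1 ± 5.23). Neto2, on chromosome 8 from 85636588 to 85700924 (minus strand), stood at 14.5 and 15.6 TPM (15.04 ± 0.728). Neto1 exceeded Neto2 by 4.16-fold and 4.36-fold (4.26 ± 0.142), with no overlap between the libraries of one and the other.

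The size of this ratio rests on short Neto1 transcripts. Neto1-201, of 8352 bases and coding for 533 residues, held 96.5% of the Neto1 expected counts in each library but 53.3% and 51.7% of the Neto1 TPM, 32.1 and 35.1 TPM. Neto1-203, a noncoding transcript of 384 bases, held 1.84% and 2.39% of the counts and 29.4% and 37.1% of the TPM, 17.8 and 25.1 TPM. The second table listed Neto1-203 at 0 in both libraries and gave Neto1-201 85.2% and 84.3%. Neto1-202, of 527 bases and with an incomplete coding sequence, held 17.4% and 11.2% in the first table and 14.8% and 15.7% in the second.

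With short transcripts left out, the Neto genes lay closer together. Over long coding transcripts Neto1 exceeded Neto2 by 2.29-fold and 2.30-fold in the first table and by 2.32-fold and 2.20-fold in the second. All transcripts of the second table gave 2.52-fold and 2.56-fold. Neto1 was the higher Neto gene in each of these. On long coding transcripts Neto1 also remained above Grik2, by 1.48-fold and 1.55-fold in the first table, while all transcripts of the second table gave 1.01-fold and 1.10-fold. Few genes had such a pattern: in 3.01% of 11935 genes with several transcripts, transcripts under 600 bases held at least 25% of the TPM and at most 5% of the counts. This rule was set after the Neto1 values had been seen.

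**Figure D4:**
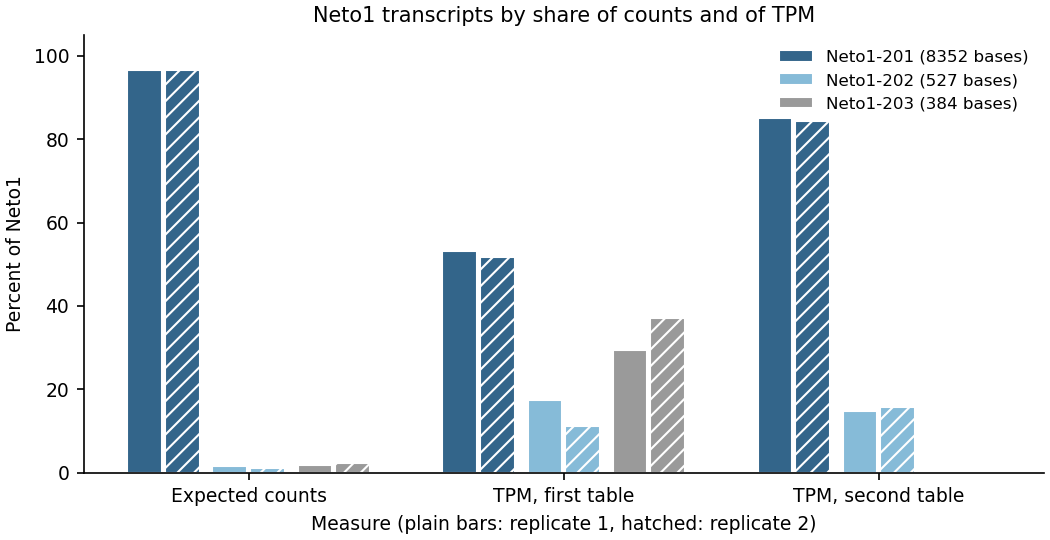
Percent of Neto1 (y axis, linear, from 0) in its 3 transcripts (colours, lengths in bases) by expected counts, by TPM of the first transcript table and by TPM of the second (x axis); plain bars are replicate 1 and hatched bars replicate 2. Neto1-203 holds 1.84% and 2.39% of the counts, 29.4% and 37.1% of the TPM in the first table and 0 in the second.

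Neto2 was split between its alternative starts. Neto2-201, coding for 553 residues, held 53.6% and 51.8% of the Neto2 TPM, and Neto2-205, coding for 525 residues, held 43.1% and 46.1%. Their ratio was 1.24 and 1.12 (1.18 ± 0.0849) in the first table and 1.17 and 0.877 (1.03 ± 0.209) in the second, so the second table did not order the forms the same way in both libraries. Neto2-201 has 501 unique stretches of 100 bases and Neto2-205 has 288. Of the Neto2 transcripts, Neto2-201 reaches farthest at the 3′ end, to 85636588, and it shares its first base, 85690973, with Neto2-204. Its unique stretches therefore need not mark its start. Transcripts without a coding sequence held 3.31% and 2.12% of Neto2 in the first table and 7.49% and 1.77% in the second.

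Of the 6 members with several transcripts, 5 had the same leading transcript in both tables when the libraries were averaged. Over all detected genes with several transcripts the share was 76.3%, or 81.4% when only transcripts of protein-coding type were ranked. Grik2 was the exception among the members. Reads could be told apart between the members themselves. No stretch of 100 bases from any member transcript occurs in another member or in another gene in the same orientation. The 3 annotated genes that overlap exons of a member, Gm24420 in Grik4, AC113599.1 in Neto1 and Mir8109 in Neto2, had 0 counts in both libraries.

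Against the other ionotropic glutamate receptors, the kainate receptor genes were the lower family. Their summed level was 158 and 163 TPM, against 638 and 647 TPM for the 4 AMPA receptor genes, which carry fast excitatory transmission, and 469 and 457 TPM for the 7 NMDA receptor genes, whose channels pass calcium. The kainate sum was 0.248 and 0.253 of the AMPA sum (0.250 ± 0.00338) and 0.337 and 0.358 of the NMDA sum (0.348 ± 0.0147). Grik5 nevertheless stood above Gria3, at 63.3 ± 2.09 TPM, and Gria4, at 21.7 ± 1.63 TPM. The Neto genes summed to 74.9 and 83.3 TPM, 0.473 and 0.510 of the kainate sum (0.492 ± 0.0256).

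A list of 19 genes for binding and trafficking partners of kainate receptors was set beside the members. Of these, 18 matched a symbol and all 18 were detected. Their median level was 54.9 TPM. The highest were Snap25, a SNARE protein of vesicle fusion, at 947 ± 70.8 TPM, Nsf, the ATPase that takes SNARE complexes apart, at 502 ± 1.76 TPM, and Dlg4, the postsynaptic scaffold PSD-95, at 340 ± 8.48 TPM. The lowest was Grip2, a PDZ-domain scaffold, at 3.25 ± 0.205 TPM. The median list member thus stood above the median of the detected protein-coding genes given above.

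The enzymes that edit RNA from adenosine to inosine were also measured, since GluK1 and GluK2 messengers are known to be edited in the pore region. Adar stood at 46.3 and 53.1 TPM (49.7 ± 4.84). Adarb1, the enzyme best known for editing glutamate receptor messengers, stood at 43.9 and 45.6 TPM (44.8 ± 1.20). Adarb2, a family member without known editing activity, stood at 15.8 and 13.5 TPM (14.7 ± 1.61). Editing itself was not analysed here.

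The differences between the libraries in the members were of a size common among other genes. With counts normalised by the trimmed mean of M-values (TMM), 0 of 7 members had a log2 ratio of 0.32 or more in size, where 8.4% of the 14887 genes tested did. Genes were tested at a mean CPM (counts scaled to library size) of 1 or more. At 2-fold the count was also 0 of 7, against 0.517% of genes. The log2 ratios of replicate 2 over replicate 1 ran from -0.01 for Grik2 to 0.20 for Grik4, and 6 of 7 were above 0, where 50.9% of the genes tested were. The median absolute log2 ratio over the genes tested was 0.0745. Scaled to the spike-in RNAs, which shifted all log2 ratios by -0.18, 1 of 7 was above 0, so the direction of the members other than Grik4 and Grik2 depended on the scaling. The deposited TPM intervals of the libraries did not overlap for 2 of 7 members, Grik3 and Grik4, where this held for 6.25% of the genes tested.

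Grik4 had the largest ratio of the members. It had 2084 and 2279 expected counts, and replicate 2 exceeded replicate 1 by 1.15-fold after TMM, with a 95% interval from 1.08 to 1.22 that covers counting error only. The ratio stayed above 1 with spike-in scaling, but only at 0.03 on the log2 scale. No separate interval was computed for that scaling. The shift of -0.18 on the log2 scale places the TMM interval on both sides of 1, so this small value lies within counting error. Of the genes tested, 82.8% differed by less between the libraries. Grik4 is known for its expression in CA3 pyramidal cells and dentate granule cells. Beside it, 4 of 7 CA3 markers were higher in replicate 2, with a median log2 ratio of 0.04 and a summed level of 292 TPM and then 317 TPM, most of it from Nptx1 at 194 and 210 TPM. Of the dentate granule markers 0 of 8 were higher in replicate 2, with a median log2 ratio of -0.16 and summed levels of 173 and 167 TPM. Inhibitory neuron markers were higher in replicate 2 in 7 of 7 cases, with a median log2 ratio of 0.13 and sums of 519 and 564 TPM. The part of these cell types, and of the choroid plexus difference, in the Grik4 ratio was not tested.

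**Figure D5:**
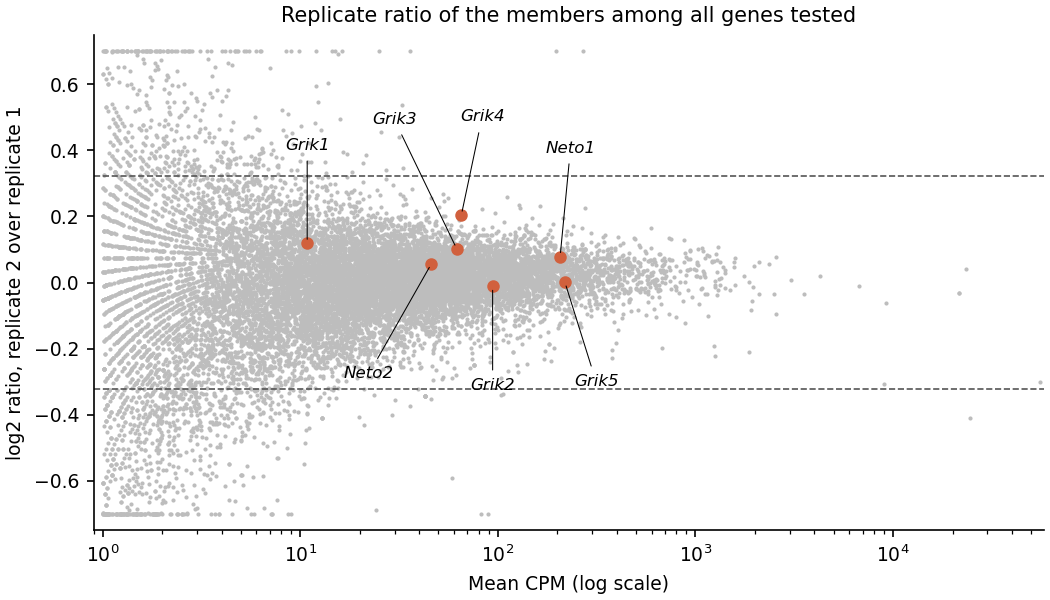
Log2 ratio of replicate 2 over replicate 1 after TMM (y axis, linear) against mean CPM (x axis, log scale) for all genes tested (grey), with the 7 members in orange; grey points beyond the plotted range are drawn at its edge, and dashed lines mark 0.32 in either direction. All 7 members lie between the dashed lines, Grik4 being the highest.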

How the data were processed

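Total RNA was measured in 2 libraries of 1 group, grouped by the labels, which also give the replicate numbers. Per the deposited notes, reads were compared with mm10 and GENCODE M21; no tool or version is named in what was used here. The authors deposited, per the file headers, a gene table and a first transcript table with an expected count, TPM and the percent of a gene's TPM in each transcript, and a second transcript table with an estimated count and TPM. Per the deposited notes, the first transcript table was derived from an alignment file and the second from a read file. The bounds of each deposited TPM interval were read as a score, since their level is not given per the file headers. Effective length was transcript length minus 99 bases in all rows, so stretches of 100 bases were used to compare transcripts. Whether counting used strand is not stated.

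Levels and shares are the deposited values, and TPM of the second table was summed per gene. Expected counts were rounded and scaled by TMM in edgeR 4.0.16 (R 4.3.3), with a prior count of 0.5; the ratio of the libraries was tested on simulated data. Ratios have 95% Clopper-Pearson intervals from the counts. Python 3.11.15, pandas 2.3.3, scipy 1.17.1 and matplotlib 3.10.9 were used. Alternatives were the second table, rescaled TPM, CPM, posterior mean TPM, coding transcripts only, DESeq2 1.42.0 factors, spike-in scaling, no filter and each replicate alone. The members and the 23 gene lists were chosen with earlier results of these data known. All 7 members were named, with up to 4 of the highest and the lowest gene of a list, and transcripts with at least 5% of a gene's TPM in either table; other transcripts are named where a coding form or a printed sequence rests on them, and Gria3, Gria4 and overlapping genes where a comparison does. Since mm10 is a C57BL/6J assembly, CAST/EiJ reads may align less well, and alleles were not separated.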

Additional observations from a re-analysis of the deposited data

How the results depend on the processing

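By mean level, the order of the members kept 7 of 7 places in every alternative except CPM, where it kept 5 of 7. No level ratio turned its direction. Coding transcripts longer than the 80% minimum (long coding) were added as an alternative after seeing the data. On these, Grik2 and Grik4 were nearly level, at means of 22.13 and 22.115 TPM. Grik2 was higher in replicate 1, at 21.7 against 20.0 TPM. Grik4 was higher in replicate 2, at 24.2 against 22.6 TPM. The second table had the same reversal, with Grik2 at 34.9 and 35.8 TPM and Grik4 at 31.6 and 38.5 TPM. In the order second table, CPM, long coding, and long coding in the second table, Grik5 over Grik2 became 2.24, 2.32, 3.49 and 2.76. Likewise Grik2 over Grik3 became 4.03, 1.52, 2.28 and 2.41, Neto1 over Neto2 2.54, 4.48, 2.30 and 2.26, and high-affinity over low-affinity genes 2.06, 1.70, 2.80 and 2.37. Neto over kainate genes became 0.349, 0.561, 0.357 and 0.403, and kainate over AMPA genes 0.258, 0.201, 0.257 and 0.232. Grik5 over Grik4 became 3.36 in CPM, 3.52 for long coding and 2.82 for long coding in the second table. With all transcripts of coding type, Grik2 over Grik3 became 3.17, Grik5 over Grik4 3.52, Neto1 over Neto2 2.92, Neto over kainate genes 0.399 and kainate over AMPA genes 0.264. The fewer transcripts counted, or the missing length correction, are part of these alternatives; the cause of the differences in the second table was not tested. Without either replicate the ratios are those of the libraries given above. Members sharing a leading transcript numbered 4 in replicate 2 alone and 5 in replicate 1 alone. The count of members past a log2 ratio of 0.32 was 0 under each scaling tried. Depth limits Grik1 most, the member with the fewest counts. No paired analysis was possible because the series has 1 group.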
